A study of Mus musculus with 12 samples.

Results

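The cells described here are intron-rich and intron-poor mouse liver cells with a similar mitochondrial share. They were chosen from values deposited for each cell. Cells with 8 to 25% of their counts in mitochondrial genes were kept, and a cell was called intron-rich when its deposited intronic fraction was 0.35 or more and intron-poor when it was under 0.20. Of 31003 cells, 14571 (47.0%) lay in the mitochondrial window, and 6641 (21.4% of all) were chosen, 2206 of them intron-rich and 4435 intron-poor. The counts of each side were summed within each library, and the sides were compared in pairs over the 11 of 12 libraries with at least 20 cells on both sides, which held 1527 intron-rich and 4435 intron-poor cells.

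The libraries came from the livers of wild-type mice of the 129S6/SvEv strain, females and males, taken at zeitgeber time 10 (ZT10) or 22 (ZT22), in hours after the lights go on; each of these 4 groups had 3 libraries. The animals' age is not given in the labels. Livers were perfused with collagenase, hepatocytes were enriched by a centrifugation step, and the cells were frozen and thawed before the 10x Genomics Chromium v3 libraries were made, so that every cell on both sides had been through a freeze and a thaw. A count is a number of unique molecular identifiers (UMIs), that is, of captured RNA molecules. Nothing in the labels says that the libraries of a group came from separate animals, so the p-values below measure the spread between these libraries. The features of the count table carry numbers and no gene names, so neither the labelled tissue nor any cell type could be checked against marker genes, and a feature is called by its number.

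Introns are transcribed with the rest of a gene and are removed by splicing in the nucleus, so an intronic read comes as a rule from RNA that is unspliced or still nuclear. The transcripts of the mitochondrial genome are made and kept outside the nucleus and have no introns in the mouse. In single-cell data both shares are used to describe the state in which a cell or nucleus was captured. Hepatocytes devote much of their messenger RNA to a small set of very abundant transcripts, many of them for secreted plasma proteins and metabolic enzymes.

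The rule fixed the intronic fractions, which are therefore a description. The median intronic fraction in the libraries compared was 0.138 to 0.179 on the intron-poor side and 0.368 to 0.428 on the intron-rich side. The mitochondrial share was held within the window but not made equal. The mitochondrial percent of the summed counts was lower on the intron-rich side in 9 of 11 libraries, by up to 2.97 percentage points, and higher in 2, by up to 0.762. The median over libraries was 16.4% for intron-poor and 15.2% for intron-rich cells. The cells next to the thresholds were much alike in depth. The 570 cells at 0.19 to 0.20 had a median of 3292 UMIs and 1190 detected features, and the 644 cells at 0.20 to 0.21, just outside, had 3268 and 1198. The 242 cells at 0.35 to 0.36 had 3360 UMIs and 1429 features, and the 263 cells at 0.34 to 0.35, just outside, had 3397 and 1386.

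The libraries differed in how many cells each side held. Intron-rich cells made up 2.29 to 32.7% of the window cells of a compared library, from 29 cells in female ZT10 replicate 1 to 487 in male ZT10 replicate 1. Intron-poor cells made up 8.50 to 48.6%, from 26 cells in male ZT10 replicate 2 to 714 in female ZT10 replicate 3. The library of male ZT22 replicate 2 stood apart: 679 of its window cells (72.9%) were intron-rich, with a median intronic fraction of 0.530, and 0 were intron-poor, so it entered no paired comparison. The library of male ZT10 replicate 2 was the smallest, with 494 cells, and 88 of its cells carried a second library code, of which 24 were on the intron-rich side and 0 on the intron-poor side. Between libraries, 120 cell barcodes were shared, and 50 of the chosen cells carried such a barcode. The side sums held 83734 to 2234918 UMIs.

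Intron-rich cells had more UMIs and more detected features than intron-poor cells of the same library. The intronic fraction comes from the reads of these same cells. Whether intronic reads entered the counts is not given in the sources used here. The tests of UMIs, detected features and the share of the top features therefore describe the sides. They are not independent of the choice of cells. The median UMI count per cell ranged from 2223 through a median of 3110 to 4068 over the 11 libraries on the intron-poor side, and from 2607 through 3472 to 4574 on the intron-rich side. It was higher on the intron-rich side in 11 of 11 libraries although the ranges overlapped, with a mean difference of 400 ± 329 UMIs (SD, n = 11; exact two-sided sign-flip permutation test, p = 0.00098, adjusted p = 0.00098 over 4 measures), and 0.00098 is the smallest p that 11 pairs can give. With the mean per library in place of the median, the difference was 309 UMIs (exact sign-flip p = 0.146), and within the main cell population described below it was 226 UMIs (exact sign-flip p = 0.105).

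The number of features detected per cell also overlapped between the sides and was higher on the intron-rich side in 11 of 11 libraries. It ran from 920 through 1134 to 1342 on the intron-poor side and from 1244 through 1433 to 1826 on the intron-rich side, a mean difference of 339 ± 102 features (SD, n = 11; exact sign-flip test, adjusted p = 0.00098). To set depth aside, each cell was thinned to 1000 UMIs, which left out 45 intron-poor and 7 intron-rich cells. The thinned medians were 456 to 532 features (median of libraries 500) on the intron-poor side and 527 to 605 (median 580) on the intron-rich side. The intron-rich side was again higher in 11 of 11 libraries, by 79.4 ± 34.7 features (SD, n = 11; exact sign-flip test, adjusted p = 0.00098), and the smallest of these differences, 2.50 features, was that of male ZT10 replicate 2.

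Fewer of the intron-rich cells' molecules fell in the most abundant transcripts. The 100 most abundant non-mitochondrial features over all cells took 41.2 to 49.3% (median 44.9%) of the non-mitochondrial UMIs on the intron-poor side and 32.6 to 39.4% (median 34.2%) on the intron-rich side. The 11 values of each side did not overlap. These features were ranked on counts that include the chosen cells. The share was lower on the intron-rich side in 11 of 11 libraries, with a mean difference of -10.2 ± 3.65 percentage points (SD, n = 11; exact sign-flip test, adjusted p = 0.00098). In cells matched on total UMIs within each library the mean difference was similar, at -9.84 percentage points (exact sign-flip p = 0.00195). That p is above 0.00098, the smallest that 11 pairs can give, so the share did not fall in every matched library.

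**Figure D1:**
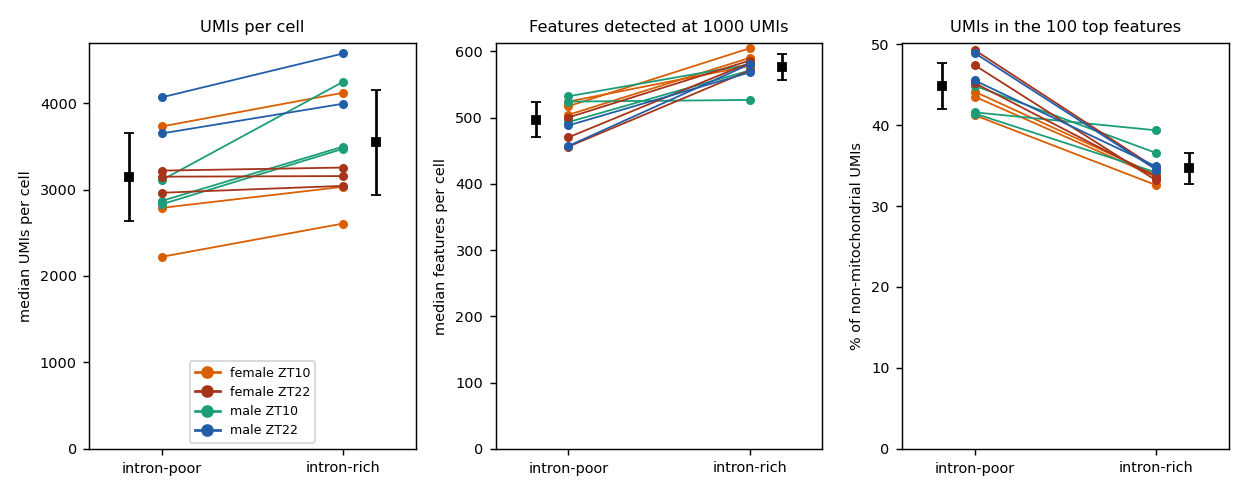
Median UMIs per cell, median features per cell at 1000 UMIs and the percent of non-mitochondrial UMIs in the 100 most abundant features (y axes, each from 0) for the intron-poor and intron-rich side (x axis) of 11 libraries. Each line joins the sides of 1 library, colours give sex and time, and squares with bars are the mean ± SD; all 11 lines rise in the first and second panels and all fall in the third, where the sides do not overlap.

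The fall in the share of the 100 top features was larger at ZT22 than at ZT10. At ZT22 the share on the intron-poor side was 45.2 to 49.3% (median 47.4%, 5 libraries), and at ZT10 it was 41.2 to 44.9% (median 42.5%, 6 libraries), without overlap. On the intron-rich side the median was 34.5% at ZT22 and 34.0% at ZT10, and the ranges overlapped. The difference between sides was -13.1 ± 1.84 percentage points at ZT22 (SD, n = 5) and -7.76 ± 2.92 at ZT10 (SD, n = 6), and the times differed by -5.32 (exact permutation test over 462 assignments of libraries, p = 0.00433, adjusted p = 0.0346 over 8 tests of 4 measures by sex and by time). Without male ZT10 replicate 2, whose difference of -2.23 was the smallest, the times differed by -4.21 (exact permutation p = 0.00794). The UMI difference per cell was 190 ± 173 in females (SD, n = 6) and 651 ± 297 in males (SD, n = 5), a difference of -461 between the sexes (exact permutation p = 0.00866, adjusted p = 0.0346). The other 6 of these tests had adjusted p-values of 0.0808 or more (exact permutation tests). These tests were added after the values had been seen. The leading part of the library code in the cell names was used at 1 time of day only, so time and that code cannot be told apart.

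The sides held different mixtures of cell clusters. Clusters were made from the counts of all cells and stay unnamed, so their sizes on the sides are a description. Clusters 0 to 3 form the main cell population of 26621 cells, and clusters 4, 5 and 6, whose leading features stood far above all other cells, were set apart. Cluster 3 took a median of 50.7% of the intron-poor cells and 0.800% of the intron-rich cells of a library, and was lower on the intron-rich side in 11 of 11 libraries. Cluster 1 took 1.63% of the intron-poor and 41.3% of the intron-rich cells, and cluster 2 took 3.85% and 25.8%, both higher on the intron-rich side in 11 of 11 libraries. Cluster 0 was common on both sides, with a median of 33.4% of intron-poor and 23.0% of intron-rich cells. Of the clusters set apart, cluster 4 took 2.77% of the intron-poor and 7.14% of the intron-rich cells, and cluster 5 took 4.82% and 0%. Cluster 6 was found on the intron-rich side of male ZT10 replicate 2 alone, where it held 22% of the cells. In that library, clusters set apart made up 34.6% of intron-poor and 25% of intron-rich cells, against 1.38 to 18.8% and 3.48 to 10.3% in the others.

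Most features with enough counts differed between the sides. Of 16818 features with a count, 5430 passed the filter on low counts, and those left out held 4.36% of the UMIs. edgeR's quasi-likelihood test with the library as a block and Benjamini-Hochberg adjustment called 4268 of the 5430 (78.6%), 2229 higher (41%) and 2039 lower (37.6%) in intron-rich cells. Among the called features 832 were at least 2-fold higher and 209 at least 2-fold lower, and the median log2 fold change was 0.86 for those higher and -0.73 for those lower. The direction was the same in all 11 libraries for 2031 of the 5430 (37.4%), 1064 of them higher and 967 lower on the intron-rich side. The intronic fraction comes from the reads of the same cells as the counts, and whether intronic reads entered the counts is not given in the sources used here, so these calls describe how the sides differ and are no test independent of the choice of cells.

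The fold changes did not gather around 0. Of the 5430 features, 1631 (30.0%) had a log2 fold change of -0.5 or less, 1943 (35.8%) lay between -0.5 and 0.5, and 1856 (34.2%) were at 0.5 or more. In the 1086 most abundant features the lower side was the larger: 499 (46.0%) were at -0.5 or less and 275 (25.3%) at 0.5 or more. The scale of these fold changes depends on the scaling of the libraries. With trimmed-mean (TMM) scaling the median feature stood at 0.04, and with total UMIs alone it stood at 0.35. Total UMIs alone gave 4059 calls, of which 2766 were higher and 1293 lower, so the share of calls that were higher was 68.1% in place of 52.2%, and 61 features were called in both fits with opposite signs.

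**Figure D2:**
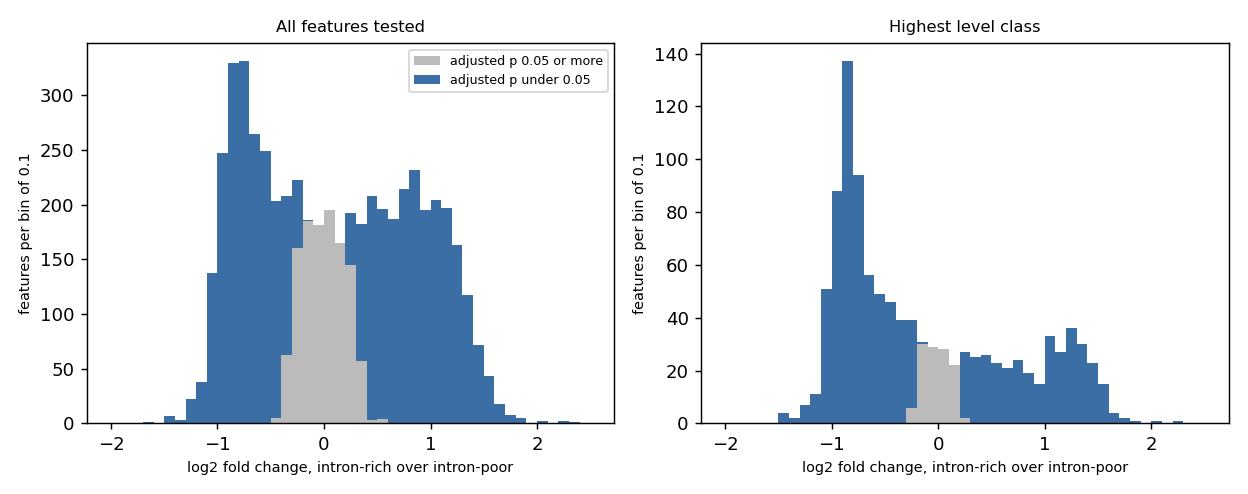
Number of features per bin of 0.1 (y axis) by log2 fold change, intron-rich over intron-poor (x axis), for all 5430 features tested and for the 1086 of the highest level class; bars are stacked, with features of adjusted p under 0.05 (edgeR) in blue above the others in grey. Called features form a group on each side of 0, and in the highest level class the lower group holds 499 of 1086 features at -0.5 or less.

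The features with the largest changes among those that moved the same way in every library show the size of the difference. Feature 12434 was rare on the intron-poor side, with a normalised level of 0 to 17.1 CPM, counts per 1000000 of the scaled sum (median 10.9), and 18.9 to 90.6 CPM (median 42.2) on the intron-rich side. The sides did not overlap in any pair of libraries. The lowest intron-rich value, that of female ZT10 replicate 1, is 2 UMIs, against 1 UMI in its intron-poor sum. The gap to the highest intron-poor value rests on those 2 UMIs. The level rested on few molecules, 0 to 27 UMIs per intron-poor sum and 2 to 76 per intron-rich sum, and the sum with 0 UMIs, that of female ZT10 replicate 2, allows up to 6.06 CPM. The means were 9.30 ± 5.28 and 48.5 ± 22.4 CPM (SD, n = 11), and the log2 fold change was 2.38 ± 0.17 (standard error; edgeR, adjusted p = 1.52e-15).

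Feature 779 was at 0 to 92.6 CPM (median 27.6) on the intron-poor side and at 102 to 445 CPM (median 139) on the intron-rich side. Again the sides did not overlap. In intron-poor cells the 6 female libraries, at 27.6 to 92.6 CPM, all stood above the 5 male ones, at 0 to 25.1 CPM. On the intron-rich side the female range was 135 to 445 CPM and the male range 102 to 139 CPM, which overlap narrowly. The log2 fold change was 2.20 ± 0.13 (standard error; edgeR, adjusted p = 2.87e-18). The intron-poor sum of male ZT10 replicate 2 held 0 UMIs of this feature, which at its size allows up to 34.7 CPM, above the lowest female value.

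Feature 2733 fell from 44.8 to 160 CPM (median 94.0) on the intron-poor side to 5.93 to 49.9 CPM (median 27.2) on the intron-rich side. It was lower in 11 of 11 libraries, and the ranges overlapped slightly. Its log2 fold change was -1.60 ± 0.13 (standard error; edgeR, adjusted p = 6.51e-14).

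Feature 5186 was abundant, with 498 to 2049 CPM (median 709) on the intron-poor side and 47.4 to 1027 CPM (median 332) on the intron-rich side. With TMM scaling the sides did not overlap within either sex. In females they were at 498 to 709 and 47.4 to 332 CPM, and in males at 1082 to 2049 and 391 to 1027 CPM. In unscaled sums the male sides overlapped, at 1105 (intron-rich, male ZT10 replicate 1) and 1051 CPM (intron-poor, male ZT10 replicate 2). The log2 fold change was -1.49 ± 0.13 (standard error; edgeR, adjusted p = 3.92e-13). Within cluster 0 alone, where 6 libraries had 20 cells on both sides, it was -0.57, still called lower.

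**Figure D3:**
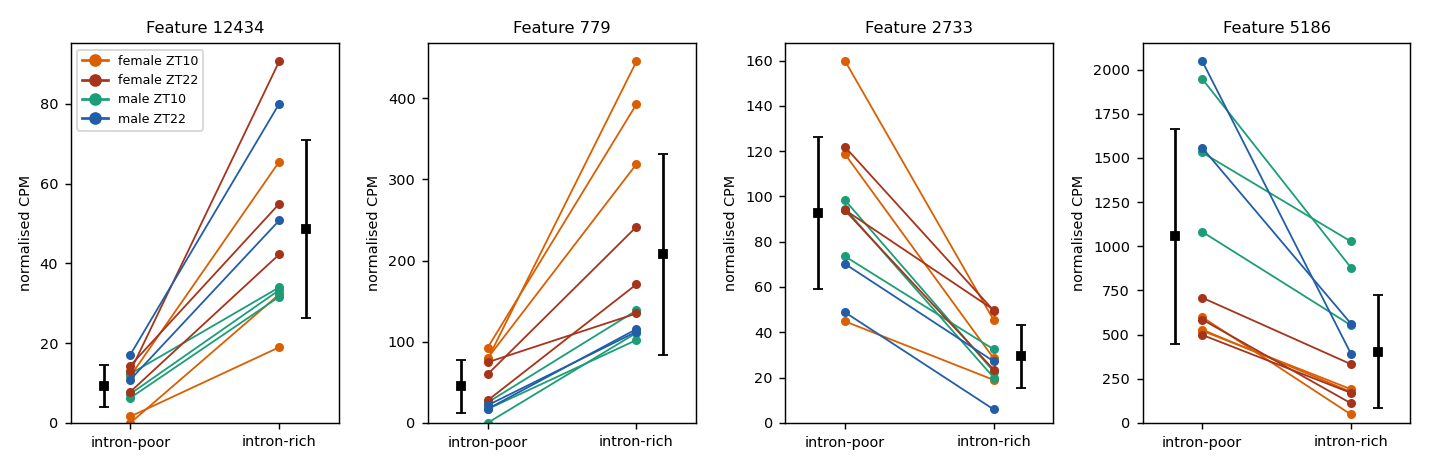
Normalised level in CPM (y axes, linear, from 0) of features 12434, 779, 2733 and 5186 on the intron-poor and intron-rich side (x axis) of 11 libraries. Lines join the sides of 1 library, colours give sex and time, and squares with bars are the mean ± SD; the first 2 features rose and the last 2 fell in all 11 libraries.

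The levels of the 4 features also differed between the clusters. Feature 12434 had 68.2 UMIs per 1000000 of the summed UMIs (plain CPM) in cluster 1 and 6.90 in cluster 0, and feature 779 had 253 and 25.9. Feature 5186 had 1218 plain CPM in cluster 0 and 237 in cluster 1, and feature 2733 had 79.2 and 20.9. Feature 2733 was higher in cluster 2 (44.4 plain CPM) than in cluster 3 (35.8), while features 12434 and 779 were at 40.9 and 166 in cluster 2 and at 20.3 and 103 in cluster 3. In the main population alone 10 libraries had 20 cells on both sides. Of the 5430 features of the main comparison 5399 were tested there, 2140 called higher and 2085 lower. Within cluster 0 alone 2322 of 3342 tested were called. The 4 features kept their direction and their call in the main population, and features 2733 and 5186 also within cluster 0, where the other two did not pass the filter.

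Groups of features differed in how they moved. The 13 mitochondrial features are tied to the rule through the window, so their values are a description. With TMM scaling 11 of the 13 were called lower on the intron-rich side and 1 higher, and their median log2 fold change was -0.43, against 0.04 for all features; with total UMIs alone 6 were lower and 1 higher, with a median of -0.12. The mitochondrial feature that rose was the twelfth of the 13 adjacent rows and the least abundant, at 175 ± 59.1 CPM on the intron-poor side and 234 ± 48.7 CPM on the intron-rich side (SD, n = 11), higher in 10 of 11 libraries. Its log2 fold change was 0.51 (edgeR, adjusted p = 3.18e-05). The remaining feature, the ninth row, was not called (log2 fold change -0.18, edgeR, adjusted p = 0.0739).

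Of the 100 most abundant other features, 74 were lower and 15 higher in intron-rich cells, with a median log2 fold change of -0.75. The share of lower calls, 74%, stands beside 37.6% over all features tested. Without TMM scaling 63 were lower and 22 higher, with a median of -0.43. When cells were matched on total UMIs, 72 were lower and 14 higher (median -0.79), and in the main population 77 were lower and 13 higher (median -0.78). Over the 5 classes of equal size by mean level, the median log2 fold change was 0.00 in the lowest class, 0.20, 0.26 and 0.21 in the next 3 and -0.41 in the highest, where 618 of 1086 were lower and 351 higher. Without TMM scaling the medians were 0.31, 0.51, 0.57, 0.53 and -0.09.

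Features that differ between the sexes or times of day over all cells were drawn from these same libraries, so their direction is no independent evidence. Over all cells, 658 of 12505 features (5.26%) differed between females and males, 2.73% higher in females and 2.53% higher in males. Between the times 978 (7.82%) differed, 4.29% higher at ZT22 and 3.53% higher at ZT10. Of the 144 tested features higher in males, 77 were higher and 32 lower in intron-rich cells (median log2 fold change 0.32). Of the 142 higher in females, 41 were higher and 63 lower (median -0.22), but this median turned to 0.10 without TMM scaling. Of the 290 tested features higher at ZT22, 132 rose and 78 fell on the intron-rich side (median 0.25), and of the 259 higher at ZT10, 146 rose and 47 fell (median 0.43). Over all tested features, 41% were higher and 37.6% lower. Of 13 features found in 1 sex only, in females, 8 were tested, 2 rising and 4 falling with a median of -0.26, which also changed sign without TMM scaling (0.11). Of 6 features found in males only, 0 passed the filter, since only 10 of the 22 sums were male.

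The share of the 100 top features also fell over bands of the intronic fraction, with hardly any change over the first step. In bands of 0.05, counted in libraries with at least 20 cells in a band, the median share was 44.9% of the non-mitochondrial UMIs under 0.20, 44.7% at 0.20 to 0.25, 41.9% at 0.25 to 0.30 and 39.1% at 0.30 to 0.35. It was 35.8% at 0.35 to 0.40, 33.3% at 0.40 to 0.45 and 29.6% from 0.45 up. The number of libraries was 11 in the lowest band, 12 in the next 4, and 8 and 5 in the last 2, so the last bands rest on fewer libraries. In male ZT22 replicate 2, the library with no intron-poor cell, the share was 41.9% at 0.20 to 0.25 and 29.0% from 0.45 up. From one band to the next within a library the share fell in 56 of 60 steps and rose in 4, 2 of them in male ZT10 replicate 2 and 1 each in male ZT10 replicate 3 and male ZT22 replicate 2. In male ZT10 replicate 2 it went from 41.6% under 0.20 to 44.9% at 0.20 to 0.25 and to 38.7% from 0.45 up, above the other 4 libraries of that band. The same bands held a median mitochondrial percent of 17.1 at 0.20 to 0.25 and 13.9 from 0.45 up.

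**Figure D4:**
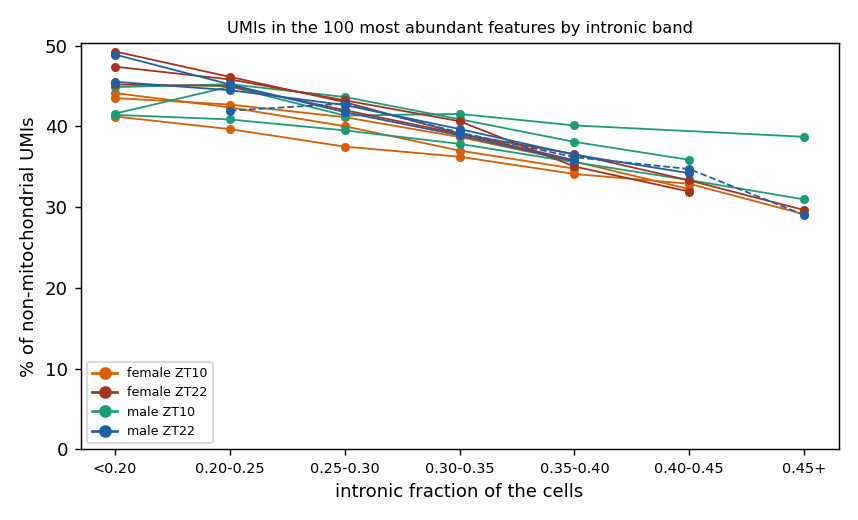
Percent of non-mitochondrial UMIs in the 100 most abundant features (y axis, from 0) by band of intronic fraction (x axis) in each library; lines join the bands with at least 20 cells, colours give sex and time, and the dashed line is male ZT22 replicate 2. The share falls from 41.2 to 49.3% in the lowest band to 29.0 to 38.7% in the highest, and the library that ends at 38.7% is male ZT10 replicate 2.

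Cells that the rule left out were compared in the same way. They come from the same libraries and include none of the chosen cells, but they too were split by the intronic fraction. Their agreement in direction with the sides is therefore a description and no independent test. In the window, cells at 0.30 to 0.35 (1695 cells) were compared with cells at 0.20 to 0.25 (3330 cells) in 12 libraries, male ZT22 replicate 2 included. edgeR called 2515 of 5350 features (47%), 1269 higher (23.7%) and 1246 lower (23.3%) at the higher fraction. Of the 4133 features called between the sides and tested here, 97.0% had the same sign, 2429 were called in the same direction and 0 in the opposite one (edgeR). Their median log2 fold changes were 0.30 and -0.29, against 0.86 and -0.73 between the sides. With the library term replaced by group means, 1584 features were called.

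Feature 793 was higher in the upper of these bands in 12 of 12 libraries. It was at 0 to 190 CPM (median 66.3) in the lower band and at 6.01 to 281 CPM (median 146) in the higher one. The lowest values in both were those of male ZT22 replicate 2. The sums of that library held 0 and 1 UMIs, so no direction is shown there. The log2 fold change of feature 793 was 0.92 ± 0.09 (standard error; edgeR, adjusted p = 1.62e-16). Feature 9574 rose from 7.83 to 42.9 CPM (median 23.0) to 22.3 to 79.3 CPM (median 49.1), also in 12 of 12 libraries, with a log2 fold change of 0.88 ± 0.13 (standard error; edgeR, adjusted p = 2.45e-08). Feature 2733, which fell between the sides, fell here too, from a median of 67.5 to 39.9 CPM in 12 of 12 libraries (log2 fold change -0.88 ± 0.11, standard error; edgeR, adjusted p = 1.19e-10). Feature 2217 fell from a median of 35.1 to 19.4 CPM in 12 of 12 libraries (log2 fold change -0.84 ± 0.15, standard error; edgeR, adjusted p = 1.17e-06). In each of these features the ranges of the bands overlapped, so the shift showed within libraries.

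Outside the mitochondrial window, 2841 intron-rich cells were compared with 4929 intron-poor cells in 11 libraries. The intronic fraction split these cells as well, so agreement with the window is a description. edgeR called 5976 of 7701 features (77.6%), 2936 higher (38.1%) and 3040 lower (39.5%). Of the 4267 features called in the window and tested here, 98.8% had the same sign, 4014 were called in the same direction and 12 in the opposite one. Feature 326 rose from 7.41 to 75.6 CPM (median 31.4) to 73.0 to 532 CPM (median 207) in 11 of 11 libraries (log2 fold change 2.90 ± 0.13, standard error; edgeR, adjusted p = 7.34e-14). Feature 13281 rose from 0 to 20.9 CPM (median 4.06) to 5.06 to 150 CPM (median 69.3) and was higher in 11 of 11 libraries (log2 fold change 3.14 ± 0.15, standard error; edgeR, adjusted p = 1.98e-13). The lowest intron-rich value equals 3 UMIs in male ZT10 replicate 2. In the intron-poor sum of that library 1 UMI stands at 7.41 CPM, so no direction is shown there. Features 5958 and 8870 fell in 11 of 11 libraries, from medians of 38.0 and 24.5 CPM to 3.26 and 3.85 CPM, with log2 fold changes of -2.65 ± 0.24 and -2.34 ± 0.25 (standard error; edgeR, adjusted p = 7.91e-10 and 1.01e-08). Both lay mostly in cluster 4, with 191 and 149 plain CPM there and 1.80 to 2.40 and 1.00 to 1.60 in clusters 0 to 3.

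Each library also gave, for most features, the direction found in the others. All libraries were split by the intronic fraction, so this describes how alike they were and is no independent test. With 1 library left out at a time, edgeR called features in the other 10, and the left-out library showed the same direction for 79.7% (female ZT10 replicate 1) to 96.1% (male ZT22 replicate 3) of them, with a median of 92.9%. The lowest value came from the library with 29 intron-rich cells, and the next, 82.5%, from male ZT10 replicate 2, with 26 intron-poor cells. In male ZT22 replicate 2, which took no part in the comparison of the sides, 68.3% of 4132 features had the direction of that comparison between the bands at 0.30 to 0.35 and 0.20 to 0.25. In the other 11 libraries this share was 68.7 to 86.3%.

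The difference between the sides changed with sex in few features. The test of the term for side by sex called 8 of 5430 features (0.147%), 2 with a larger difference (intron-rich minus intron-poor, log2) in females (0.0368%) and 6 with a smaller one (0.11%), and 241 had an unadjusted p under 0.05. DESeq2 called 0 of them (110 at an unadjusted p under 0.05), and with the library term replaced by group means edgeR called 0 (141 unadjusted). Feature 13155 rose in 11 of 11 libraries but by more in males. In females it was at 484 to 606 CPM (median 552) on the intron-poor side and 564 to 863 CPM (median 620) on the intron-rich side. In males it was at 26.7, 36.9, 66.6, 90.6 and 117 CPM on the intron-poor side and at 95.4, 272, 85.9, 221 and 274 CPM on the intron-rich side of the same libraries. The female minus male difference of the log2 fold changes was -0.997 ± 0.19 (standard error; edgeR, adjusted p = 0.00459). The adjusted p was 0.107 without male ZT22 replicate 3, and in cells matched on UMIs and mitochondrial percent the difference was -0.63 with an adjusted p of 0.837 (edgeR).

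Feature 2804 was lower in intron-rich cells of 5 of 6 female and 3 of 5 male libraries (4 of 6 and 1 of 5 in plain CPM, without TMM), and the sexes differed by -1.04 ± 0.21 (log2, standard error; edgeR, adjusted p = 0.0107), a call lost without female ZT10 replicate 3, male ZT10 replicate 3, female ZT22 replicate 2 or male ZT22 replicate 3 (edgeR, adjusted p = 0.0654 to 0.268), and without TMM (edgeR, adjusted p = 0.0875). Feature 5686 had a difference of 2.57 ± 0.49 (log2, standard error; edgeR, adjusted p = 0.00459), which fell to 0.30 without female ZT10 replicate 3 and to 0.22 without male ZT10 replicate 1, so it rested on those libraries. Feature 6897, with a difference of 1.97 ± 0.36 (log2, standard error; edgeR, adjusted p = 0.00459), had 684 plain CPM in cluster 4 and 3.40 to 7.50 in clusters 0 to 3, and without female ZT10 replicate 2 its adjusted p was 0.0621 (edgeR). Cluster 4 held a median of 2.75% of intron-poor and 9.05% of intron-rich cells in female libraries, and 2.77% and 6.16% in male ones, and the part of this in feature 6897 was not tested.

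The difference between the sides differed between the times of day in more features. Each leading part of the library code in the cell names was used at 1 time of day only. Time and that code therefore cannot be told apart here. The term for side by time called 43 of 5430 features (0.792%), 15 with a larger difference at ZT22 (0.276%) and 28 with a smaller one (0.516%), and 693 had an unadjusted p under 0.05. Of the 43, 29 belonged to the highest level class, which held 1086 of the 5430 features, and 5 to the 549 features that differ between the times over all cells. DESeq2 called 39. With the library term replaced by group means edgeR called 0 (389 unadjusted), and with total UMIs alone 85.2% of 61 calls were larger at ZT22, against 34.9% with TMM scaling.

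Feature 6487 moved in opposite directions at the 2 times. At ZT10 it was at 185 to 1069 CPM (median 777) in intron-poor and 559 to 1194 CPM (median 954) in intron-rich cells, higher in 6 of 6 libraries. At ZT22 it was at 1571, 1287, 950, 1531 and 791 CPM in intron-poor cells and at 789, 587, 520, 685 and 525 CPM in intron-rich cells of the same libraries, lower in 5 of 5 and without overlap. The ZT22 minus ZT10 difference of the log2 fold changes was -1.31 ± 0.16 (standard error; edgeR, adjusted p = 2.13e-07), and it was -1.20 in the main population (edgeR, adjusted p = 8.23e-10). In intron-rich cells the ranges of the 2 times overlapped (559 to 1194 CPM at ZT10 and 520 to 789 CPM at ZT22), and so did those in intron-poor cells (185 to 1069 CPM at ZT10 and 791 to 1571 CPM at ZT22).

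Feature 2250 was higher in intron-rich cells of 6 of 6 ZT10 libraries, at 234 to 1136 CPM (median 545) against 641 to 1598 CPM (median 1027). At ZT22 it was at 449, 504, 716, 652 and 711 CPM in intron-poor and 359, 352, 521, 667 and 667 CPM in intron-rich cells, lower in 4 of 5 libraries. That direction at ZT22 depends on the scaling: in plain CPM, without TMM, it was higher in intron-rich cells of 3 of the 5 libraries and lower in 2. The times differed by -0.99 ± 0.16 (log2, standard error; edgeR, adjusted p = 6.94e-05), by -0.81 without TMM (edgeR, adjusted p = 0.00255) and by -0.87 in the main population (edgeR, adjusted p = 3.40e-05). With every sum thinned to the smallest the difference was -0.74 (edgeR, adjusted p = 0.0744).

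Features 3738 and 871 went the other way. Both rest on few UMIs, 0 to 76 per sum. Feature 3738 was at 6.41 to 68.2 CPM in intron-poor and 0 to 34.0 CPM in intron-rich cells at ZT10, lower in 5 of 6 libraries. In the other, female ZT10 replicate 1, the sums held 4 and 0 UMIs, and 3 counts in the intron-rich sum would stand at 26.9 CPM, so no direction is shown there. In plain CPM female ZT10 replicate 3 also turned, at 23.8 against 24.6. Feature 3738 was higher in 5 of 5 ZT22 libraries, at 4.31 to 19.97 against 14.98 to 41.7 CPM (difference of the times 2.40 ± 0.37, log2, standard error; edgeR, adjusted p = 6.94e-05). Of these, female ZT22 replicate 2 was nearly equal, at 19.97 and 20.13 CPM (20 and 6 UMIs). The sums of female ZT22 replicate 1 held 6 and 3 UMIs, so no direction is shown there. Feature 871 was higher in 1 of 6 ZT10 (2 of 6 in plain CPM) and 5 of 5 ZT22 libraries (difference 2.40 ± 0.45, log2, standard error; edgeR, adjusted p = 0.00191), a call that DESeq2 did not make (adjusted p = 0.497). Its sums in female ZT22 replicate 1 held 12 and 2 UMIs, so no direction is shown there. Outside the mitochondrial window feature 871 was lower in intron-rich cells of 11 of 11 libraries, those of ZT22 included (log2 fold change -1.87). Feature 3738 was lower there in 10 of 11 (log2 fold change -2.05). Both were rare in clusters 0 to 3, at 4.90 to 8.90 plain CPM, and were at 406 and 133 in cluster 4 and at 368 and 452 in cluster 5. Cluster 4 held a median of 2.14% of intron-poor and 8.80% of intron-rich cells at ZT22, and 4.29% and 6.06% at ZT10. Cluster 5 held 4.82% and 0% at ZT22 and 6.995% and 0% at ZT10. The part of these clusters in the 2 features was not tested, since neither feature passed the filter in the main population.

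**Figure D5:**
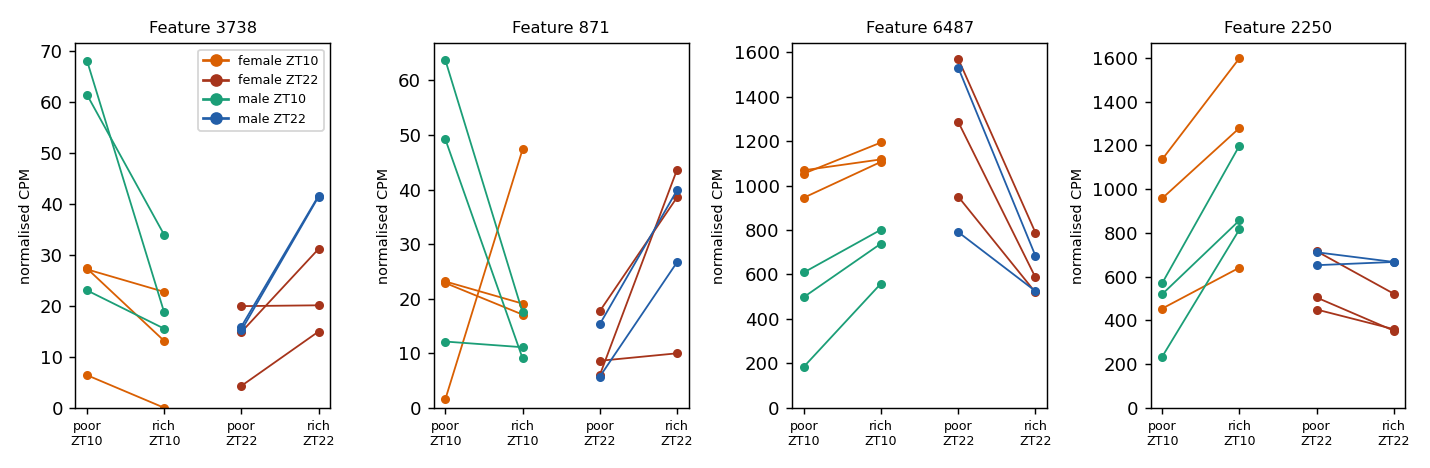
Normalised level in CPM (y axes, linear, from 0) of features 3738, 871, 6487 and 2250 on the intron-poor and intron-rich side at ZT10 (6 libraries) and ZT22 (5 libraries); each line joins the sides of 1 library and colours give sex and time. With TMM scaling, features 6487 and 2250 are higher on the intron-rich side in 6 of 6 libraries at ZT10. At ZT22 they are lower in 5 of 5 and 4 of 5, where without TMM feature 2250 is lower in 2 of 5. Feature 3738 is lower in 5 of 6 at ZT10, the other having 0 UMIs on the intron-rich side. At ZT22 feature 3738 is higher in 5 of 5. Of these, female ZT22 replicate 2 is nearly equal (19.97 and 20.13 CPM) and female ZT22 replicate 1 holds 6 and 3 UMIs.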

How the data were processed

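The data are 12 single-cell libraries of mouse liver. Per the submitters' processing notes, Cell Ranger 6.1.2, Seurat and the genome build mm10 were used; the cell filters, and whether intronic reads were counted, are not given in the sources used here. The deposited table holds raw UMI counts of 18326 features in 31003 cells, and the 12 libraries held 494 to 3949 cells and 2284202 to 14654630 UMIs, 100273202 in all. Per the file headers, the authors' metadata give each cell's intronic share as a fraction and its mitochondrial share as a percent. Column sums, detected features and the mitochondrial percent recomputed from 13 adjacent features equalled the metadata in all 31003 cells. The denominator of the intronic fraction is not given in the sources used here.

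The cells, features and lists described here were chosen with earlier results of these data known. UMIs were summed per library and side and fitted with edgeR 4.0.16 (TMM scaling, filterByExpr by side, quasi-likelihood test) with 1 term per library, with Benjamini-Hochberg adjustment across every feature tested and a threshold of 0.05. The terms for sex and time were fitted together on the same sums. Standard errors are those of the log2 fold change. The levels printed are counts per 1000000 of the TMM-scaled sum (CPM), and plain CPM uses the summed UMIs unscaled. Clusters came from scanpy 1.11.5 and the Leiden method of igraph 0.11.9 (2000 variable features, 8 principal components, 15 neighbours, resolution 0.3), and a cluster was set apart when its 10 leading features had a median fold above 8 over all other cells. No doublet caller was run. Named features are the 2 largest rises and falls among those called, with at least 10 CPM on the higher side and 1 direction in every library, and for the terms for sex and time the 2 lowest adjusted p-values each way. Gene names were needed for the marker lists and for sequences, so neither is used here. Paired measures per library were tested with the exact sign-flip permutation test. The fits were also run on simulated counts in which libraries differed only in depth and planted changes, so that run does not test the library term. The alternatives included DESeq2 1.42.0 and limma-voom (limma 3.58.1), other scalings, filters, thresholds and windows, cells matched on depth, and each library left out in turn. Limits that a count of 0 allows are those of 3 counts and cover counting error only.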

Additional observations from a re-analysis of the deposited data

Results flagged for a closer look

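The difference between sides in the share of the 100 top features was -2.23 percentage points in male ZT10 replicate 2, farther from the other ZT10 libraries than they lie from each other (gap of 0.628 of the range of 6 libraries). Of 20 sets of libraries looked at, 1 held such a value, and chance gives about 1 in 20. That library had 26 intron-poor cells, and 22% of its intron-rich cells were in cluster 6.

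The edgeR test of the difference itself called 8 features for sex and 43 for time of day. In other settings of the processing the count ran from 0 to 17 for sex and from 0 to 92 for time. Time and the leading part of the library code cannot be told apart. For sex (female minus male, log2) the named features were at 2.57 (feature 5686), 1.97 (feature 6897), -0.997 (feature 13155) and -1.04 (feature 2804). With a library left out, feature 5686 fell to as low as 0.22. For time (ZT22 minus ZT10, log2) they were at 2.40 (feature 3738), 2.40 (feature 871), -1.31 (feature 6487) and -0.99 (feature 2250).

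The deposited metadata also give a caspase percent, which no comparison used. In UMIs it came to 16 in 2206 intron-rich cells and 15 in 4435 intron-poor cells, each in a cell of its own. The shallowest cells with such a UMI had 10048 and 10161 UMIs, and 28 intron-rich and 32 intron-poor cells had over 10000, so no cell below that depth carried one on either side. The cell filters are not given in the sources used here, and their part in this pattern was not tested.

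The 679 intron-rich cells of male ZT22 replicate 2 entered no paired comparison, for want of intron-poor cells. Their median intronic fraction was 0.530.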

How the results depend on the processing

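The count of 4268 features between the sides was 3960 to 4624 with a library left out, 4145 with no replicate block (library term replaced by group means) and 4137 with DESeq2. It was 802 with every sum thinned to the smallest (1088 tested), 2565 in cells matched on UMIs and mitochondrial percent (3225 tested), 2742 in the main population matched on UMIs (3424 tested) and 2322 in cluster 0 (3342 tested), each with fewer features tested. Between the thresholds 1584 features were called with no replicate block, in place of 2515.

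The 8 features for sex became 3 with total UMIs alone, 0 with DESeq2, 17 with no filter, 3 in cells matched on UMIs, 0 in cells matched on mitochondrial percent (155 at an unadjusted p under 0.05, edgeR), 4 at thresholds of 0.40 and 0.18, 2 in thinned sums, 1 in cells matched on both, 3 in the main population matched on UMIs and 13 with a term for the leading part of the library code in place of time. With a library left out they were 1 to 12: 1 without female ZT10 replicate 3, 3 without male ZT10 replicate 3, 4 without female ZT10 replicate 2 or male ZT22 replicate 3, and 5 without female ZT22 replicate 1.

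The 43 features for time became 73 with DESeq2 size factors, 92 with limma-voom, 91 with no filter, 14 in cells matched on UMIs, 28 in cells matched on mitochondrial percent, 18 at thresholds of 0.40 and 0.18 and 9 in thinned sums. With a library left out they were 16 to 117: 16 without male ZT22 replicate 1, 19 without female ZT10 replicate 2, 24 without female ZT22 replicate 1, 66 without male ZT22 replicate 3, 73 without male ZT10 replicate 2 and 117 without female ZT22 replicate 3. The cause of these changes was not tested.

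Replicate numbers are shared between groups and were not used to pair libraries in the main fits. Same-numbered libraries of different groups correlated at -0.073 to 0.207 (median 0.027) in their deviations from the group means (15 pairs across features). Libraries of different groups and numbers correlated at -0.207 to 0.084 (median -0.013, 30 pairs), and 6 of 11 libraries correlated best with their own number. With a replicate block added to the terms, 10 features were called for sex and 57 for time. With no replicate block 0 were called for either (141 and 389 at an unadjusted p under 0.05, edgeR), and the UMI difference of 399.7 had an unpaired permutation p of 0.113.

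The UMI difference was 756 at thresholds of 0.40 and 0.18, 615 at a mitochondrial share of 10 to 20%, 309 with means in place of medians, 226 in the main population, 3.27 in cells matched on UMIs and -35.2 in the main population matched on UMIs (exact sign-flip permutation p = 0.191), the matching itself removing it. The 3 other measures kept their direction and stayed under the threshold in every setting tried, with exact permutation p-values of 0.0166 or less; the difference in features detected ran from 205 to 465. So did features 12434, 779, 2733 and 5186 between the sides (edgeR, adjusted p of 4.59e-07 or less), where they were tested. Sums of 83734 UMIs limit what can be tested in low features.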
